A study of Tegula funebralis with 16 samples.

Results

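Genes named for the nervous system and for G-protein coupled receptors were followed in the marine snail Tegula funebralis (also Chlorostoma funebralis) after a heat exposure in air. A contig, an assembled transcript or a piece of one, was included when its deposited name held acetylcholine, neuropeptide, G-protein coupled receptor, dopamine, serotonin or hydroxytryptamine, aminobutyric, glutamate receptor, "synap" or "neur", and did not hold channel, solute carrier, sodium or potassium. In all, 181 names matched, and 178 of them averaged 10 or more normalised reads over the libraries and are the members described here, of 14444 contigs with such a mean and 15903 contigs in the table. Those just inside that minimum were SR_contig_180628 (a G-protein coupled receptor, 10.3), SR_contig_6913_C3.1 (a Notch-like name, 10.3) and SR_contig_107258 (a probable G-protein coupled receptor, 11.1), and those just outside were SR_contig_67719 (a nicotinic acetylcholine receptor subunit, 5.59), SR_contig_110956 (0.0464) and SR_contig_536_C3.2 (0).

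Neurons signal to each other and to muscle and gland with small transmitters, such as acetylcholine, dopamine, serotonin, glutamate and GABA, and with neuropeptides cut from larger precursors. The receiving cell reads them through ion channel receptors, which act at once, and through G-protein coupled receptors, which act through G proteins, cyclic AMP and phospholipase C. Gastropods are classic subjects for such work, since single identified neurons and the peptides they release can be followed, and the acetylcholine binding protein that gave the first structure of a nicotinic binding site came from a snail. The rule goes by names, so it also takes in proteins that are not confined to nerve cells, such as Notch, a receptor for signals between neighbouring cells, and calcineurin, a calcium-dependent phosphatase.

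Heat-exposed snails were warmed in air from 15 °C to a target of 34 °C within 5.5 hours, a time chosen to stand for a low tide, and control snails stayed in air at 15 °C for 5.5 hours in the same incubator. Snails came from 2 southern Californian sites, Aliso Beach and La Jolla, and 2 northern ones, Slide Ranch and Pigeon Point. Each site gave 2 heat and 2 control libraries, so there were 8 groups, 16 libraries, 8 heat libraries and 8 control libraries. RNA was taken from ground whole animals, each individual extracted by itself, and nothing in the labels says how many animals entered a library; age and sex are not given in them. In whole animals, fewer cells of a type and less RNA per cell cannot be told apart, and neither can nervous tissue and other tissue that uses the same gene.

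The libraries held 17594009 to 26103215 recovered reads. In 12 of them, between 1.61% and 2.18% of the reads fell on the members. The other 4 (heat 1 and control 1 of La Jolla, and heat 1 and control 1 of Pigeon Point) had 0.719% to 1.23% of their reads on the members, and a single contig, SR_contig_83, took 16.6% to 39.2% of their reads, against 1.58% to 6.80% in the 12. Both extremes were in La Jolla heat 1, whose members' share has a Wilson 95% interval of 0.715% to 0.722%, which covers counting error only. After normalisation, the median member was lower in these 4 than in the other library of the same site and treatment, with a log2 difference of -0.36, against -0.03 for all contigs tested. A fit to the other 12 libraries, chosen after the data were seen, is given beside the calls and counts below. That fit keeps only 1 library per treatment at La Jolla and at Pigeon Point. Its spread therefore comes from Slide Ranch and Aliso Beach alone. Standard errors and adjusted p-values given with 12 libraries do not measure the spread between libraries at La Jolla or Pigeon Point.

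Of the 178 members, 171 had at least 1 read in every library and 25 had a mean under 50. Changes are given as log2 of the value plus 1, with the standard error of the fit, from limma with Benjamini-Hochberg adjustment over all 14444 contigs. A member is called when its adjusted p was under 0.05. Names are those of the deposited annotation, taken from other species, so a role stated below is the one known there, mostly in mammals. Contigs with the same name may be pieces of 1 gene or close copies that share reads, and their values are then not independent.

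Heat over the 4 sites moved few of the members. Of the 178, 2 rose and 4 fell, 3.37% in all, against 4.24% of all contigs tested (percent called, either direction), so the share of members called was not above that of the whole table. The median change of the members was 0.02 on the log2 scale, and that of all contigs was 0.00. edgeR also called 6 members, 3.37% against 4.33% of all contigs, and DESeq2 called 19, 10.7% against 9.09% of all contigs. By direction, 1.12% of the members rose, against 2.08% of all contigs, and 2.25% fell, against 2.16% of all contigs. Before adjustment, 35 members (19.7%) had p under 0.05, against 18.4% of all contigs. The change had 1 sign at all 4 sites in 75 members, 42.1%, against 38.9% of all contigs, and was at least 1 on the log2 scale in 9 members, 5.06%, against 4.11% of all contigs. With 12 libraries, 39 members were called, 21.9% against 18.8% of all contigs. Of these, 20 were higher in heat (11.2%, against 10.6% of all contigs) and 19 lower (10.7%, against 8.22% of all contigs), and the 6 called with 16 libraries were among them with the same sign. Of the 2 that rose, 1 is named for its likeness to a melatonin-synthesis enzyme and 1 carries the name of an activity-regulated transcription factor. The 4 that fell were neuropeptide Y, a muscarinic acetylcholine receptor, a neuronal pentraxin and a neurofilament protein.

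**Figure D1:**
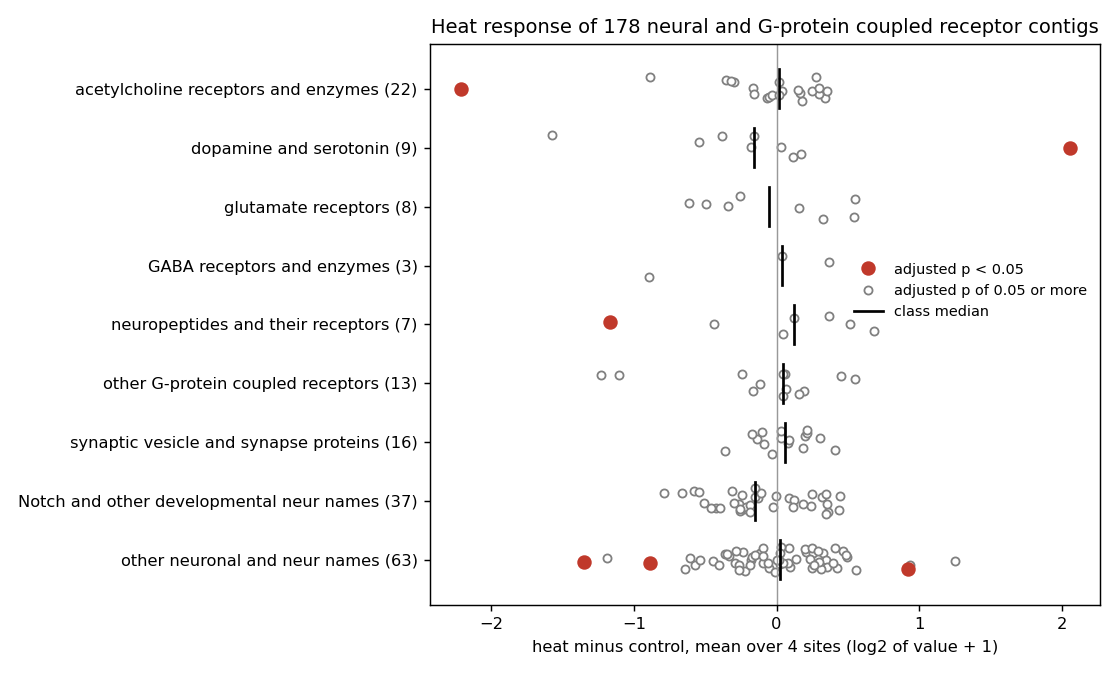
Heat response of the 178 members by role, with the number of contigs in brackets. Each point is 1 contig's change, heat minus control over the 4 sites (log2 of value + 1), red points are the 6 called members, which run from -2.21 to 2.06, and black bars are class medians, which lie between -0.16 and 0.12.

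Of the enzymes, carriers and receptors for monoamines, the transmitters made from single amino acids, 1 rose and none fell among 9. N-acetylserotonin O-methyltransferase-like protein (SR_contig_34067) is named for its likeness to the enzyme that makes melatonin from N-acetylserotonin. The name alone does not show that this contig codes for that enzyme. The contig's normalised read count had a lowest value of 932, a median of 1452 and a highest of 3129.5 in the 8 heat libraries. In the 8 control libraries these were 203, 345 and 598. Every heat library was above every control library, at each site and in the pooled set. The means were 1595 ± 658 in heat and 382 ± 134 in control (SD, n = 8 each), a log2 change of 2.06 ± 0.18 (SE; limma, adjusted p = 2.18e-05). The change was 2.25 at Aliso Beach, 2.05 at La Jolla, 2.06 at Slide Ranch and 1.86 at Pigeon Point, and with 12 libraries it was 1.88 ± 0.19 (adjusted p = 2.22e-04).

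The other monoamine members were not called. A dopamine D2-like receptor (SR_contig_154454), of the kind that lowers cyclic AMP, had 0, 13.6 and 19.5 normalised reads (lowest, median, highest) in heat, against 14.8, 32.7 and 56.6 in control. The 0 was La Jolla heat 1, and 3 of the 8 heat values lay above the lowest control value. The log2 change was -1.58 ± 0.53 (adjusted p = 0.138), and -1.13 ± 0.29 with 12 libraries (adjusted p = 0.0253). A second dopamine receptor contig (SR_contig_14630_C3.1) had a change of -0.38 (adjusted p = 0.314), and the contig named for the serotonin receptor 5-hydroxytryptamine receptor 2B (SR_contig_117711) had 143, 181 and 231 normalised reads in heat, against 153, 177 and 207 in control. That serotonin receptor had a change of 0.03 ± 0.14 (adjusted p = 0.931), and the contigs named for the dopamine transporter and for a vesicular amine carrier had changes of -0.16 and -0.09, the carrier being counted below with the synapse proteins. The 4 contigs named for dopamine beta-hydroxylase, which turns dopamine into noradrenaline in vertebrates, had changes of -0.54 to 0.17, none of them called. The monoamine member with the highest mean read count, not corrected for length (SR_contig_1661_C3.2), had 964, 1669 and 2006 normalised reads in heat, against 1138, 1504 and 1731 in control.

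Acetylcholine signalling gave 1 call among 22 members, and it was the sole muscarinic receptor. Muscarinic acetylcholine receptor M5-like (SR_contig_168934) carries the name of a G-protein coupled receptor that acts through phospholipase C. Its normalised read count was 0, 11.99 and 22.1 in heat (lowest, median, highest), against 22.0, 48.6 and 63.8 in control. The groups met at a single pair of values, Slide Ranch heat 1 at 22.1 and La Jolla control 1 at 22.0, and within either region every heat library was below every control library. Its means were 11.6 ± 6.22 in heat and 47.3 ± 15.0 in control (SD, n = 8 each), a log2 change of -2.21 ± 0.43 (adjusted p = 0.0115). The lowest value, 0, was Pigeon Point heat 1, and with 12 libraries the change was -1.94 ± 0.23 (adjusted p = 5.57e-04).

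The 16 contigs named for nicotinic receptor subunits, the ion channel receptors for acetylcholine, did not give a call. Their changes ran from -0.89 to 0.36 with a median of 0.03, and 10 were above 0 and 6 below. The most negative was subunit alpha-6 (SR_contig_55896), with 17.1, 29.99 and 61.1 normalised reads in heat, against 28.9, 55.3 and 87.0 in control. That is a log2 change of -0.89 ± 0.27 (adjusted p = 0.104), and the groups overlapped; with 12 libraries it was called, at -1.04 ± 0.30 (adjusted p = 0.0376). An alpha-3-like subunit (SR_contig_5482) had 2803, 3364 and 4902 normalised reads in heat, against 2042, 2624 and 4318 in control, a change of 0.34 ± 0.12 (adjusted p = 0.168). Acetylcholinesterase (SR_contig_27127), which breaks acetylcholine down, had 1055, 1317 and 1419.6 normalised reads in heat, against 836, 1028 and 1366 in control. Its change was 0.27 ± 0.11 (adjusted p = 0.218), and 0.32 ± 0.09 with 12 libraries (adjusted p = 0.0403). The vesicular acetylcholine transporter (SR_contig_54662), which loads acetylcholine into vesicles, had a change of -0.35 (adjusted p = 0.511).

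**Figure D2:**
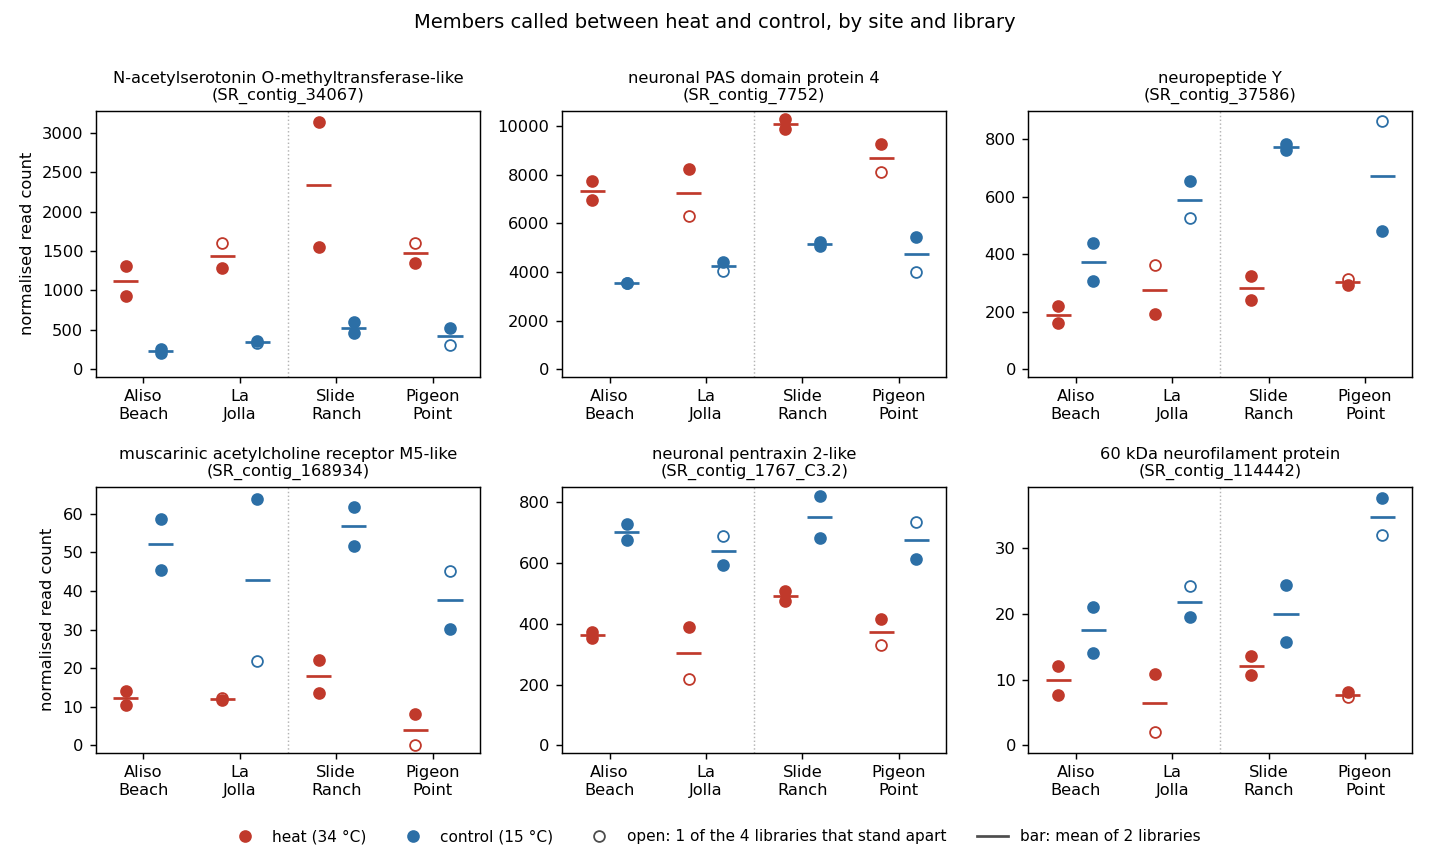
Normalised read counts of the 6 members called between heat and control, by site, with southern sites left of the dotted line. Each point is 1 library (heat red, control blue; open points are the 4 libraries that stand apart) and bars are means of 2; for neuronal PAS domain protein 4 the 8 heat libraries lie at 6294 to 10282 and the 8 control libraries at 3526 to 5451.

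Glutamate receptors gave no call with all 16 libraries among 8 members. The ones picked out here for passing the test with 12 libraries were chosen after their values were seen. Both contigs named for metabotropic glutamate receptor 3, a G-protein coupled receptor that lowers cyclic AMP, had negative changes at all 4 sites. SR_contig_436 had 984, 2074 and 2756 normalised reads in heat (lowest, median, highest), against 2121, 3156 and 3799 in control. Within either region every heat library was below every control library, and across regions the groups overlapped. Its log2 change was -0.62 ± 0.17 (adjusted p = 0.0635), and -0.55 ± 0.07 with 12 libraries (adjusted p = 9.97e-04). SR_contig_3374 had 1329, 2807 and 3948 normalised reads in heat, against 3022, 3845 and 5071 in control. The lowest of these was La Jolla heat 1, and the change was -0.49 ± 0.18 (adjusted p = 0.171), and -0.44 ± 0.07 with 12 libraries (adjusted p = 0.00254). The third metabotropic contig, metabotropic glutamate receptor 5 (SR_contig_7571), had a change of -0.26 ± 0.14 (adjusted p = 0.365) and passed in neither fit.

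The ionotropic glutamate receptors, which are ion channels, had 3 of 4 changes above 0. Kainate receptor subunit 4 (SR_contig_20370) had 520.3, 631 and 949 normalised reads in heat, against 336, 464 and 568 in control. The heat values of the northern sites overlapped the controls by 1 library, Slide Ranch heat 2 at 520.3, and in the south every heat library was above every control library. The change was 0.54 ± 0.14 (adjusted p = 0.0612), and 0.53 ± 0.13 with 12 libraries (adjusted p = 0.0241). A probable glutamate receptor (SR_contig_870_C3.2) had a change of 0.33 ± 0.19 (adjusted p = 0.404), and by 0.50 ± 0.12 with 12 libraries (adjusted p = 0.0219). Glutamate receptor-interacting protein 1 (SR_contig_90273), a scaffold that holds such receptors at synapses, had 168, 314 and 366 normalised reads in heat, against 125, 205 and 249.9 in control. Of its 8 heat values, 6 were above the highest control value, and La Jolla heat 1 and Pigeon Point heat 1 were not; its change was 0.55 ± 0.19 (adjusted p = 0.148), and 0.52 ± 0.11 with 12 libraries (adjusted p = 0.0107). None of the 3 members whose names hold that of GABA, the main inhibitory transmitter, was called with all 16 libraries. The name of SR_contig_3312, gamma-aminobutyric acid receptor-associated 2-like, is that of a receptor-associated protein and not of a receptor. Its change was 0.04 (limma, adjusted p = 0.92). A GABA type B receptor subunit (SR_contig_43667), which is G-protein coupled, had 0, 13.4 and 19.2 normalised reads in heat, against 2.90, 19.9 and 25.1 in control, and a change of -0.89 ± 0.62 (adjusted p = 0.492).

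Of 5 neuropeptide precursors 1 fell with heat, and none of 4 neuropeptide receptors was called. Neuropeptide Y (SR_contig_37586) is the name of a peptide that regulates feeding in vertebrates and has relatives in molluscs. It had 159.5, 266 and 361 normalised reads in heat (lowest, median, highest), against 306, 588 and 863 in control. In the north every heat library (241 to 324) was below every control library (479.8 to 863), and in the south La Jolla heat 1 at 361 lay above Aliso Beach control 1 at 306. The means were 262 ± 70.7 in heat and 601 ± 194 in control (SD, n = 8 each), a log2 change of -1.17 ± 0.18 (adjusted p = 0.00279), and -1.23 ± 0.14 with 12 libraries (adjusted p = 5.34e-04). The change was -0.97 at Aliso Beach, -1.15 at La Jolla, -1.46 at Slide Ranch and -1.09 at Pigeon Point.

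The 4 other precursors were not called. FMRFamide-related neuropeptides (SR_contig_65150), named for peptides that act on heart and muscle in molluscs, had 177, 240.1 and 729 normalised reads in heat, against 124, 195 and 411 in control. The 2 highest values of each treatment were in the 4 libraries that stand apart, and the change was 0.51 ± 0.33 (adjusted p = 0.454). The FVRIamide, PTSP-like and myomodulin precursors had changes of 0.37, 0.34 and -0.44. Neuroendocrine convertase 1 (SR_contig_583), an enzyme that cuts peptide precursors, had 27611, 32123 and 35887 normalised reads in heat, against 21962, 25383 and 32480.0 in control. The groups overlapped in the south and not in the north, and its change was 0.29 ± 0.11 (adjusted p = 0.173), and 0.31 ± 0.09 with 12 libraries (adjusted p = 0.0401).

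Among receptors for neuropeptides, a neuropeptide Y receptor type 5-like contig (SR_contig_591_C3.1) had 554, 662 and 1321 normalised reads in heat, against 404, 454 and 582 in control. Within either region every heat library was above every control library, and the 2 highest values, 1321 and 1136, were the heat libraries among the 4 that stand apart. Its change was 0.68 ± 0.19 (adjusted p = 0.0755), and 0.53 ± 0.09 with 12 libraries (adjusted p = 0.00353). The other 2 neuropeptide Y receptor contigs, a type 5-like (SR_contig_28726) and a type 1 (SR_contig_6907), had a change of 0.12 and 0.05, with adjusted p of 0.816 and 0.884. Neuromedin-U receptor 2-like (SR_contig_27352), a peptide receptor of the same G-protein coupled kind, had 7.35, 33.9 and 52.4 normalised reads in heat, against 36.2, 78.2 and 101 in control. Its lowest value was Pigeon Point heat 1, the groups overlapped, and the change was -1.19 ± 0.37 (adjusted p = 0.109), and -1.13 ± 0.19 with 12 libraries (adjusted p = 0.00423).

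**Figure D3:**
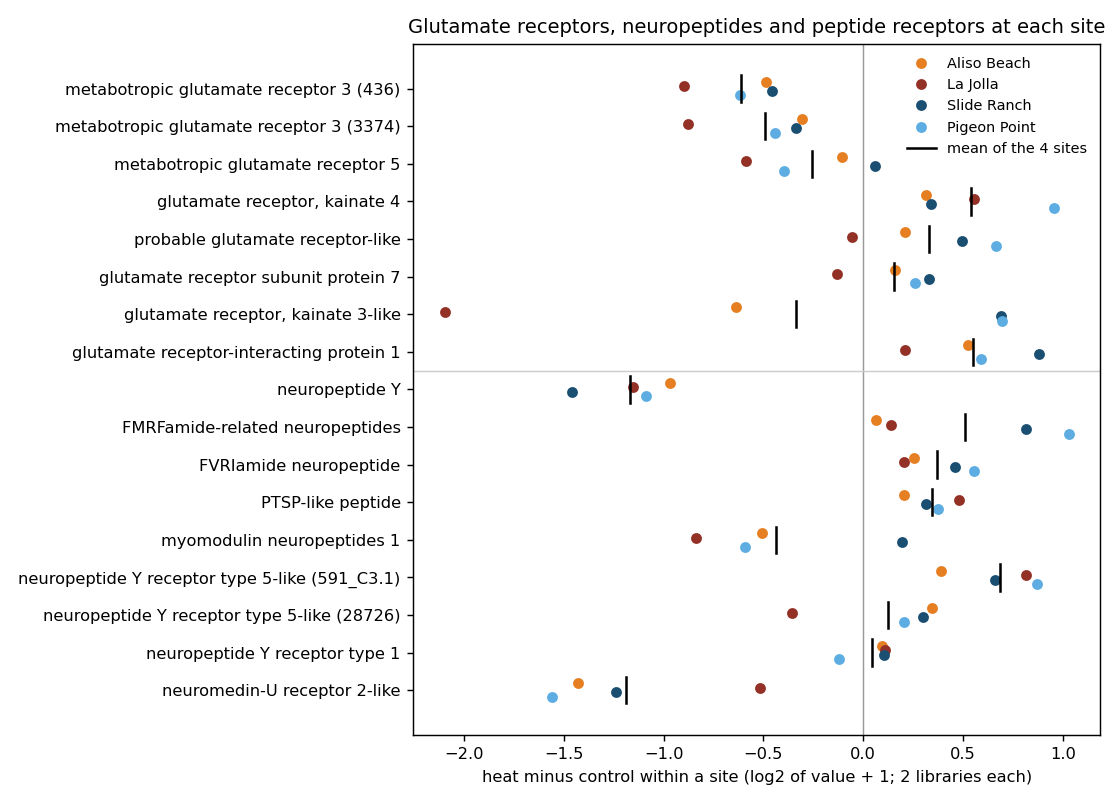
Heat minus control within each site (log2 of value + 1, 2 libraries each) for the glutamate receptor members (upper block) and for neuropeptide precursors and receptors (lower block). Black bars are means over the 4 sites; both metabotropic glutamate receptor 3 contigs lie below 0 at every site (means -0.62 and -0.49), as does neuropeptide Y (-1.17), and kainate receptor 4 (0.54) and neuropeptide Y receptor SR_contig_591_C3.1 (0.68) lie above 0 at every site.

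The 13 remaining G-protein coupled receptor members, 12 receptors and a receptor kinase, gave no call with 16 libraries. Leucine-rich repeat-containing G-protein coupled receptor 2 (SR_contig_34685), of the family of glycoprotein hormone receptors, had 14.7, 47.2 and 89.7 normalised reads in heat, against 70.5, 104 and 116 in control. One heat library, Pigeon Point heat 2 at 89.7, lay within the control values. The change was -1.11 ± 0.32 (adjusted p = 0.088), and -0.90 ± 0.19 with 12 libraries (adjusted p = 0.0137). G-protein coupled receptor 161-like (SR_contig_57407), named for a receptor of the primary cilium, had 435, 871 and 1269 normalised reads in heat, against 326, 577 and 744 in control. Its change was 0.55 ± 0.17 (adjusted p = 0.105), and 0.60 ± 0.12 with 12 libraries (adjusted p = 0.00812). G protein-coupled receptor kinase 5 (SR_contig_12095), which shuts active receptors off, had a change of 0.05 (adjusted p = 0.923). The third receptor of this class called with 12 libraries was probable G-protein coupled receptor 45-like (SR_contig_25901) at 0.49 (adjusted p = 0.0411).

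The 16 synaptic vesicle and synapse members gave no call, and their changes ran from -0.36 to 0.41 with a median of 0.06. They include 8 synaptotagmins, the calcium sensors of vesicle release, with changes of -0.36 to 0.21, and 2 SNAP proteins, part of the fusion machinery, with 0.08 and 0.41. A synaptopodin-like contig (SR_contig_622) had 6244, 6918 and 8261 normalised reads in heat, against 4889.8, 5612 and 6803 in control. Its deposited name lacks a part, so which synaptopodin is meant is not known. The groups overlapped in the south and not in the north, and the change was 0.30 ± 0.11 (adjusted p = 0.168). With 12 libraries 1 member of this class was called, a partial synaptotagmin (SR_contig_9251_C3.1), at 0.32 ± 0.09 (adjusted p = 0.0331).

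Among 63 members with other neuronal names or names that only hold "neur", 1 rose and 2 fell. They include the PTSP-like precursor, the neuromedin-U receptor and the convertase above, and also 6 calcineurin contigs, not confined to nerve cells. Neuronal PAS domain-containing protein 4 (SR_contig_7752) is the name of a transcription factor that neurons of mammals switch on with activity and calcium entry. It had 6294, 8172 and 10282 normalised reads in heat (lowest, median, highest), against 3526, 4229 and 5451 in control. Every heat library was above every control library. The means were 8343 ± 1389 in heat and 4409.5 ± 756 in control (SD, n = 8 each), a log2 change of 0.92 ± 0.10 (adjusted p = 2.16e-04), and 0.92 ± 0.07 with 12 libraries (adjusted p = 2.55e-05). By site the change lay between 0.77 at La Jolla and 1.05 at Aliso Beach. The other PAS member, neuronal PAS domain-containing protein 2 (SR_contig_10148_C3.1), a clock protein in mammals, had a change of -0.35 (adjusted p = 0.69).

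Neuronal pentraxin 2-like (SR_contig_1767_C3.2), named for a secreted protein that gathers glutamate receptors at synapses, had 217, 381 and 508 normalised reads in heat, against 592, 685 and 820.2 in control. Every heat library was below every control library, with La Jolla heat 1 the lowest. Its means were 383 ± 89.9 in heat and 692 ± 71.97 in control (SD, n = 8 each), a log2 change of -0.89 ± 0.14 (adjusted p = 0.00256), and -0.68 ± 0.09 with 12 libraries (adjusted p = 0.00112). The 2 other contigs of that name, SR_contig_46464 and SR_contig_4765_C3.1, had a change of -0.10 and -0.06, with adjusted p of 0.788 and 0.967.

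A contig named 60 kDa neurofilament protein (SR_contig_114442), an intermediate filament of nerve fibres, had 2.05, 9.35 and 13.6 normalised reads in heat, against 14.1, 22.6 and 37.5 in control. Every heat library was below every control library, at the low levels just given. The log2 change was -1.35 ± 0.32 (adjusted p = 0.0353), and -1.08 ± 0.27 with 12 libraries (adjusted p = 0.0249). That call was lost in 13 of the 16 fits that left out 1 library, where the adjusted p ran from 0.00377 to 0.108 and the change from -1.59 to -1.10, and it was kept without Pigeon Point heat 2, La Jolla heat 1 or La Jolla heat 2. A second contig with the same name (SR_contig_16339) had a change of 0.03, and the 3 neurofilament heavy polypeptide contigs by -0.57 to 0.02.

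Other members of this class were called with 12 libraries only and are named after their values were seen. Mesencephalic astrocyte-derived neurotrophic factor (SR_contig_16449), a secreted protein induced by stress of the endoplasmic reticulum in mammals and flies, had 359.9, 518 and 1593 normalised reads in heat, against 141, 284 and 973 in control. The change was above 0 at every site, between 0.78 and 1.02, and the 4 libraries that stand apart had the 4 highest values, 1593 and 1473 in heat, against 643 and 973 in control. Its change was 0.94 ± 0.42 (adjusted p = 0.263), and 0.90 ± 0.09 with 12 libraries (adjusted p = 2.77e-04). Neurobeachin-like protein 1 (SR_contig_20614), of a family that sorts vesicles, had 80.0, 166 and 260.1 normalised reads in heat, against 18.7, 91.1 and 119 in control. Only La Jolla heat 1 at 80.0 lay within the control values, and the change was 1.25 ± 0.36 (adjusted p = 0.0846), and 0.93 ± 0.11 with 12 libraries (adjusted p = 6.57e-04). Protein kinase C and casein kinase substrate in neurons protein 2-like (SR_contig_12510), which bends membranes in endocytosis, had 1425, 1681 and 1802 normalised reads in heat, against 1838, 2045 and 2331 in control. Its groups did not overlap, its change was -0.33 ± 0.09 (adjusted p = 0.0791), and it was -0.41 ± 0.08 with 12 libraries (adjusted p = 0.00899). The changes of those members of the class called with 12 libraries and named nowhere else here were smaller than 0.50 in size. Among the called were neuroligin X-linked-like (SR_contig_31203) at 0.43 and neurexin-3-alpha-like (SR_contig_19255) at -0.29, the 2 sides of a synaptic adhesion pair.

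Across all members, heat libraries lay wholly above control libraries in 2, 1.12%, against 1.17% of all contigs. They lay wholly below in 3, 1.69%, against 1.02% of all contigs. These 5 are the transferase, the PAS protein 4, the pentraxin, the neurofilament protein and the casein kinase substrate described above.

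**Figure D4:**
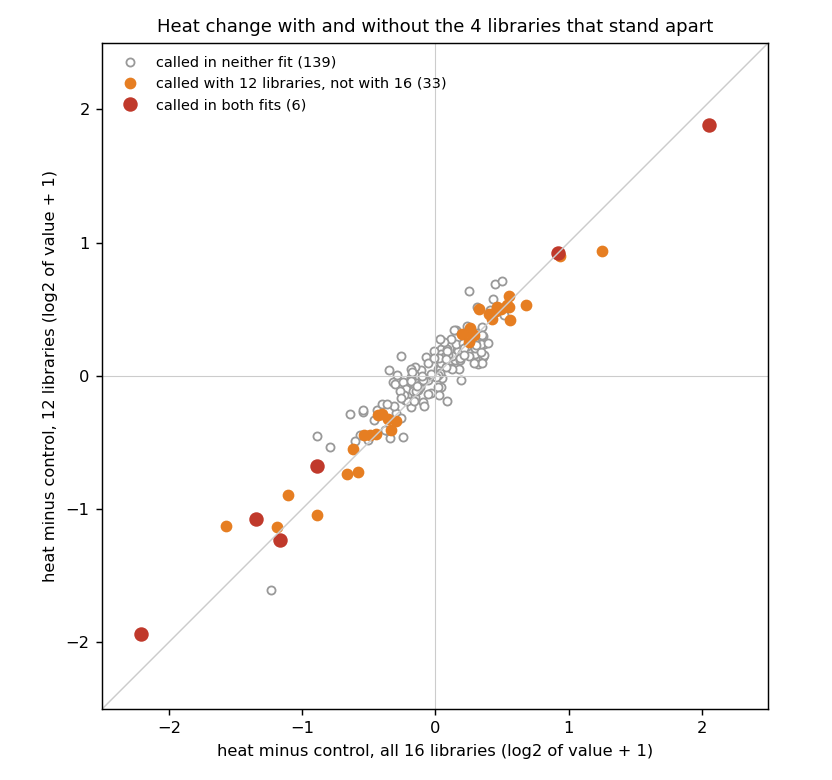
Heat minus control for each member with all 16 libraries (horizontal axis) and with the 12 that do not stand apart (vertical axis), both as log2 of value + 1. Red points (6) were called in both fits, orange points (33) with 12 libraries and not with 16, and open points (139) in neither; the muscarinic receptor has the lowest 12-library value of the called members, -1.94.

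Notch and other developmental names gave no call among 37 members. The 19 Notch names had changes of -0.46 to 0.45, with 11 above 0 and 8 below, and no call with 12 libraries either. Notch homolog protein 2-like SR_contig_1851 had 48986, 60397 and 78339.5 normalised reads in heat, against 40081, 47591 and 60268 in control. The groups overlapped, and the change was 0.32 ± 0.13 (adjusted p = 0.209). The 2 other Notch contigs among the 5 members with the highest mean read counts, not corrected for length, SR_contig_152_C3.1 and SR_contig_3368, had a change of 0.36 and 0.35 (adjusted p = 0.369 and 0.414). A neural Wiskott-Aldrich syndrome protein (SR_contig_64793), which starts actin branches, had 22.6, 62.4 and 85.0 normalised reads in heat, against 50.5, 88.7 and 130.4 in control, with a change of -0.67 ± 0.21 (adjusted p = 0.122) and -0.74 with 12 libraries (adjusted p = 0.016). Neuroglian and L1 are adhesion molecules of growing nerve fibres. Of their 10 contigs, 9 had a change below 0, with a median of -0.41 and none called, and these contigs were also lower in the 4 libraries that stand apart, by a median log2 difference of -0.68. With 12 libraries the median was -0.23 and 2 were called, a neuroglian-like contig (SR_contig_28572) at -0.73 ± 0.21 (adjusted p = 0.0401) and an L1 contig (SR_contig_13339) at -0.30 ± 0.07 (adjusted p = 0.0226). The neuroglian contig SR_contig_415_C3.1 had a change of -0.11 with 16 libraries and 0.04 with 12, neither called.

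Heat was then taken in each region by itself. In the south 3 members were called, 1.69% against 1.73% of all contigs, and in the north 3, 1.69% against 1.87% of all contigs. With 12 libraries these counts were 12 in the south, 6.74% against 5.01% of all contigs, and 20 in the north, 11.2% against 9.24% of all contigs. The transferase and PAS protein 4 rose in both: in the south by 2.15 ± 0.25 and 0.91 ± 0.15 (adjusted p = 5.32e-04 and 0.0066), and in the north by 1.96 ± 0.25 and 0.93 ± 0.15 (adjusted p = 9.74e-04 and 0.00504). With 12 libraries both were called in each region, with changes of 2.04 and 0.97 in the south and 1.72 and 0.87 in the north. The pentraxin fell in the south, with a log2 change of -1.04 ± 0.19 (adjusted p = 0.0163), and its change in the north was -0.73 ± 0.19 (adjusted p = 0.109). Neuropeptide Y had a change of -1.06 ± 0.26 in the south (adjusted p = 0.0757), and fell in the north, with -1.28 ± 0.26 (adjusted p = 0.0265). With 12 libraries the pentraxin was called in both regions, at -0.77 in the south and -0.58 in the north (adjusted p = 0.0079 and 0.0221), and so was neuropeptide Y (SR_contig_37586), at -1.37 and -1.09 (adjusted p = 0.00446 and 0.0117). The southern change minus the northern one was not called for either, at -0.31 ± 0.27 for the pentraxin (SR_contig_1767_C3.2; unadjusted p = 0.283) and 0.22 ± 0.37 for neuropeptide Y (unadjusted p = 0.57). For neuropeptide Y that difference was -0.28 with 12 libraries, of the opposite sign.

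No member's heat response differed between south and north by the test of that difference, in limma (0 of 178, against 0% of all contigs), in edgeR or in DESeq2. Before adjustment, 1 member (0.562%) had p under 0.05, against 1.36% of all contigs. That was kainate receptor 3-like (SR_contig_15630_C3.1), with 2.05 to 21.9 normalised reads in southern heat libraries, against 16.5 to 22.1 in southern controls, and 14.1 to 29.4 in northern heat libraries, against 7.83 to 17.1 in northern controls. Its southern change minus its northern one was -2.06 ± 0.70 (unadjusted p = 0.013, adjusted p = 1). The next were G-protein coupled receptor 98 (SR_contig_74669), at -1.09 ± 0.51, and a neural-cadherin-like contig (SR_contig_7785), at -1.29 ± 0.61, with unadjusted p of 0.0531 and 0.0571. For all 3, La Jolla heat 1 was the lowest heat library, and with 12 libraries the differences were -1.38, -0.58 and -0.74.

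Between southern and northern snails, averaged over heat and control, 5 members differed, 2.81%, against 5.13% of all contigs. The p-values of this contrast measure the spread between libraries of the same site and treatment, not that between sites of a region. A call between regions can therefore come from a single site. The same 5 were called among the 4 sites, 2.81%, against 3.56% of all contigs. None separated the regions fully: 0 members had all 8 southern libraries above or below all 8 northern ones, against 0.554% and 0.27% of all contigs. With 12 libraries 19 members were called between regions, 10.7% against 20.2% of all contigs. Among sites 23 were called, 12.9% against 20% of all contigs, and the 5 were among both.

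Neuronal cell adhesion (SR_contig_5000), an adhesion protein of the nerve cell surface by its name, was lower in the south. Its normalised read counts were 214 to 275 at Aliso Beach and 373 to 451 at La Jolla, against 450.1 to 596 at Slide Ranch and 465 to 859.7 at Pigeon Point. Aliso Beach lay below every other library, and La Jolla heat 1, at 451, passed the lowest northern value by less than 1 normalised read. The southern minus northern difference was -0.88 ± 0.13 (adjusted p = 0.00393), kept in all 16 fits that left out 1 library, and its adjusted p was 0.00211 with 12 libraries. Its change with heat was 0.08 ± 0.13 (adjusted p = 0.775).

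A class C metabotropic glutamate-like G-protein coupled receptor (SR_contig_1422) had 2499 to 2933 normalised reads at Aliso Beach and 3050.2 to 4112 at La Jolla, against 3906 to 4401 at Slide Ranch and 3720.2 to 4680.4 at Pigeon Point. Aliso Beach was again below all other libraries, and the La Jolla controls lay among the northern values. The difference was -0.44 ± 0.09 (adjusted p = 0.0165). The call was lost in 5 of the 16 fits that left out 1 library, those without Slide Ranch control 2 or heat 2, Aliso Beach control 1 or control 2, or Aliso Beach heat 1, with adjusted p of 0.0508 to 0.0578, and the adjusted p was 0.00761 with 12 libraries.

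Neuropilin and tolloid-like (SR_contig_1436_C3.1), named for auxiliary subunits of glutamate receptors, had 201 to 257 normalised reads at Aliso Beach and 309 to 526 at La Jolla, against 393 to 491 at Slide Ranch and 372 to 491 at Pigeon Point. It too was low at Aliso Beach and not at La Jolla. Its heat change was -0.29 with 16 libraries (limma, adjusted p = 0.164) and -0.34 with 12 (limma, adjusted p = 0.0376). The regional difference was -0.51 ± 0.11 (adjusted p = 0.0206). The call was lost in 6 of the 16 fits, those without any 1 of the 4 Slide Ranch libraries, Aliso Beach control 2 or Aliso Beach heat 1, with adjusted p of 0.0531 to 0.0653, and the adjusted p was 0.00441 with 12 libraries.

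Neuron navigator 2 (SR_contig_14754), a cytoskeletal protein of growing axons, was higher in the south. Its normalised read counts were 341 to 495 at Aliso Beach and 348 to 603 at La Jolla, against 154 to 294 at Slide Ranch and 232 to 389 at Pigeon Point. The 2 heat libraries of Pigeon Point lay within the southern values. The difference was 0.74 ± 0.15 (adjusted p = 0.0173), lost without Aliso Beach control 1, Aliso Beach heat 1 or Slide Ranch heat 2 (adjusted p of 0.0532, 0.0543 and 0.0517), and its adjusted p was 0.0137 with 12 libraries. It was also higher in heat than in control at all 4 sites, by 0.47 ± 0.15 (adjusted p = 0.119). With 12 libraries that heat change was called, at 0.52 (limma, adjusted p = 0.0312).

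Acetylcholine binding protein 1 (SR_contig_32781), a soluble protein that glia of the pond snail release to bind acetylcholine, had 58.6 to 109.6 normalised reads at Aliso Beach and 81.3 to 135 at La Jolla, against 14.0 to 20.9 at Slide Ranch and 49.4 to 167 at Pigeon Point. The 4 Slide Ranch libraries were below the other 12, and Pigeon Point overlapped the southern sites. The regional difference was 1.17 ± 0.27 (adjusted p = 0.03), and it was lost in 12 of the 16 fits that left out 1 library, where the adjusted p ran from 0.0204 to 0.0892 and the difference from 1.011 to 1.331. It stayed under 0.05 without Pigeon Point control 1, heat 1 or heat 2, or La Jolla heat 2. With 12 libraries the adjusted p was 0.00407, and the test among sites with 16 libraries gave adjusted p = 0.00872.

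**Figure D5:**
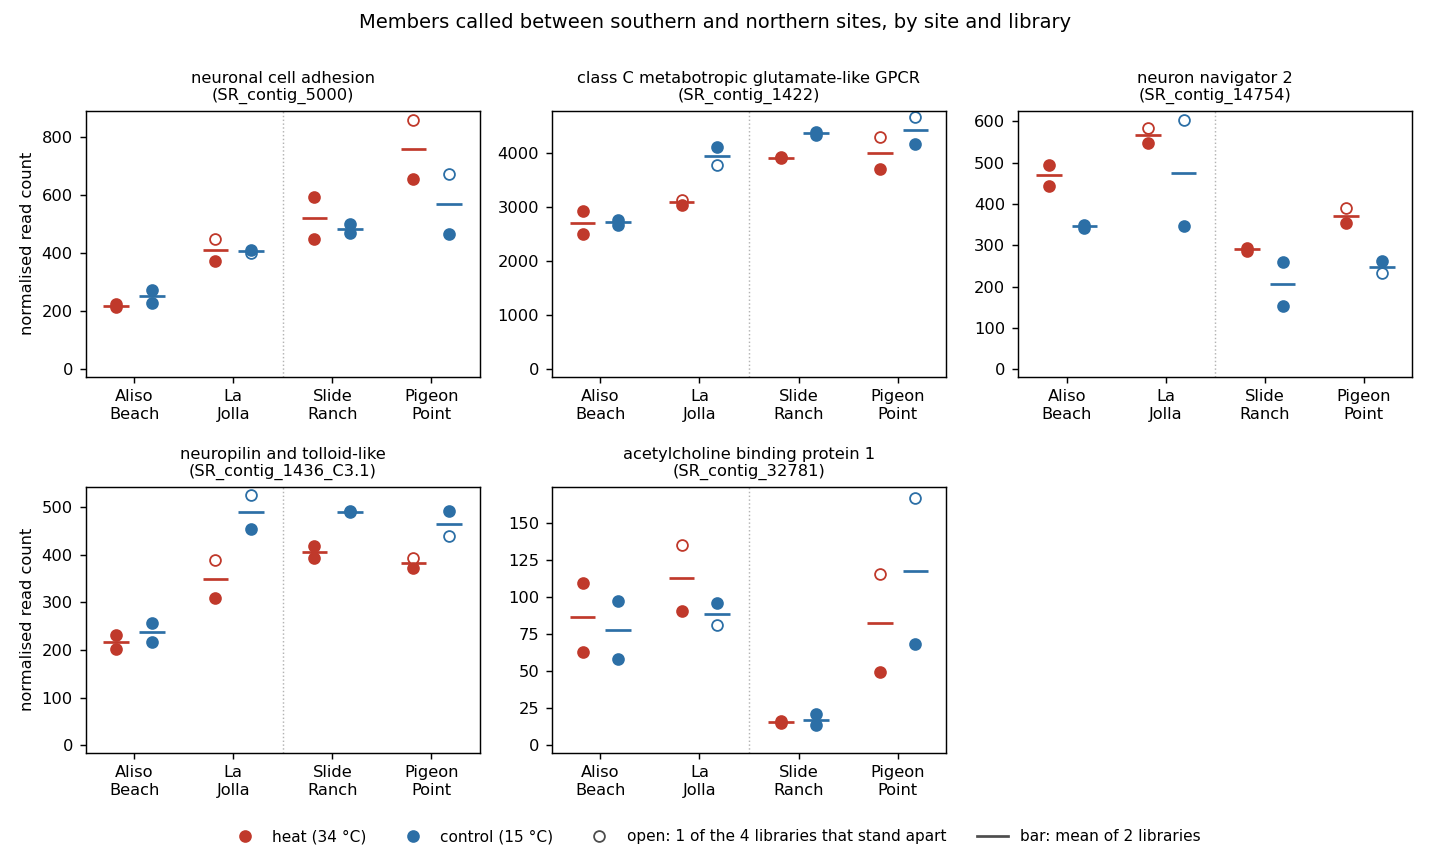
Normalised read counts of the 5 members called between southern sites (left of the dotted line) and northern sites. Each point is 1 library (heat red, control blue; open points are the 4 libraries that stand apart) and bars are means of 2; the adhesion, class C receptor and tolloid-like contigs are lowest at Aliso Beach, and the binding protein is lowest at Slide Ranch, at 14.0 to 20.9.

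Between controls alone no member differed between southern and northern sites, against 0.263% of all contigs called by limma. Before adjustment, 15 members (8.43%) had p under 0.05, against 9.25% of all contigs. In these controls edgeR called 0, and DESeq2 and the 12-library fit called 4 members each (2.25%), against 2.35% and 4.17% of all contigs. The 3 with the smallest p were neuron navigator 2 (0.84 ± 0.21, adjusted p = 0.177), neuronal cell adhesion (-0.70 ± 0.18, adjusted p = 0.181) and the class C receptor (SR_contig_1422; -0.43 ± 0.12, adjusted p = 0.242), all from limma.

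Genes that work beside the members were read from lists of names, with the members taken out. Of 41 other G-protein coupled receptors, 1 rose and 1 fell with heat. The one that rose, prostaglandin E2 receptor EP4 (SR_contig_5270), a receptor that raises cyclic AMP, had 245, 332 and 448 normalised reads in heat, against 132, 147 and 196 in control, with no overlap. Its change was 1.14 ± 0.13 (adjusted p = 2.06e-04), and 1.12 ± 0.11 with 12 libraries (adjusted p = 1.65e-04). A frizzled-5-like Wnt receptor (SR_contig_22350) fell, with -0.63 ± 0.12 (adjusted p = 0.0126), and -0.65 ± 0.10 with 12 libraries (adjusted p = 0.00325).

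With 16 libraries none of 14 heterotrimeric G proteins and regulators was called, and neither was any of 26 proteins of vesicle release or 52 of transmitter synthesis, transport and peptide processing. With 12 libraries 1 G-protein contig was higher in heat and 3 lower, 2 of vesicle release were lower, and 2 of the transmitter list were higher and 5 lower. DESeq2 called 3 G-protein contigs, 0 of vesicle release and 3 of the transmitter list, against 9.09% of all contigs. In each list edgeR called 0, against 4.33% of all contigs.

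Of 19 contigs for cyclic AMP, phospholipase C and the kinases A and C, 1 rose, a phospholipase C epsilon-like contig (SR_contig_9126) at 1.29 ± 0.32 (adjusted p = 0.0446; 0.0644 in edgeR), and it was also called, as higher in heat, with 12 libraries (adjusted p = 0.00437). Of 23 axon guidance proteins 1 fell, semaphorin-1A-like (SR_contig_14749), a guidance cue on nerve fibres, at -0.68 ± 0.16 (adjusted p = 0.0357), and -0.52 ± 0.07 with 12 libraries (adjusted p = 0.00165). In all, 4 of 174 contigs on these lists were called, 2.3%, against 4.24% of all contigs. With 12 libraries 35 were called, 20.1%, against 18.8% of all contigs.

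Markers of 5 tissues were summed in each library. The 11 nervous system markers summed to 16819 to 39062 normalised reads in heat, against 13034 to 34305 in control, and 1 of them rose, ELAV-like protein 4 (SR_contig_900), an RNA-binding protein of neurons, at 0.46 (limma, adjusted p = 0.0419; 0.0623 in edgeR, 0.00306 in DESeq2), and 0.55 ± 0.12 with 12 libraries (adjusted p = 0.013). Their sums were 28422 to 39062 in the 4 libraries that stand apart, against 13034 to 23254 in the other 12. These sums are weighted to the highest marker, whose mean was 15800 normalised reads, against 477 for the median marker. The median marker had a log2 difference of -0.03 in the 4 libraries, and so had the median of all contigs tested. None of the 11 was at 0 in any library. Of the ovary and egg markers all 25 had a change above 0 (median 0.51) and 3 rose, against 1 called by edgeR and 12 by DESeq2, with sums of 277801 to 676388 in heat, against 210816 to 461790 in control. Those sums were 335366 to 676388 in southern libraries, against 210816 to 559409 in northern ones. With 12 libraries the median change of the ovary and egg markers was 0.45.

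None of 30 digestive gland markers was called, but 26 of them had a change above 0 (median 0.31), with sums of 277343 to 562470 in heat, against 205708 to 380128 in control. With 12 libraries the median change of the digestive gland markers was 0.25. None of 52 testis markers was called, and 40 had a change below 0 (median -0.15), with sums of 21400 to 37088 in heat, against 25591 to 39796 in control. With 12 libraries the median change of the testis markers was -0.12. None of 22 muscle markers was called, 12 were above 0, and their sums were 99874 to 184667 in heat, against 86908 to 180062 in control. The median change of the muscle markers was 0.03 with 16 libraries and with 12. Of these lists edgeR called 0 contigs, and DESeq2 called 1 for digestive gland, 2 for testis and 2 for muscle. Of all contigs edgeR called 4.33% and DESeq2 9.09%. The part of tissue make-up, or of the contig that fills the 4 libraries, in the changes above was not tested.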

How the data were processed

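RNA of ground whole snails was sequenced as paired reads, per the labels' protocols. The authors deposited 1 table with a column per library, whose values are a signal unit: 100% of them were whole multiples of 1 step per column within 0.01 read, so they are read counts divided by a size factor. CASAVA and DESeq are listed, with no version, per the submitters' processing notes. How contigs were assembled and reads mapped or filtered is not given in the sources used.

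Members were chosen by name and a mean of at least 10; members, role classes, lists and tests were chosen with earlier results of these data known. limma 3.58.1 in R 4.3.3 (empirical Bayes with a trend) was fitted to log2(value + 1) of 14444 contigs with 8 group means. A contig was called at a Benjamini-Hochberg adjusted p under 0.05, from 7 contrasts: heat over all sites, in each region, and its difference between regions; region in controls and in both treatments; and sites. edgeR 4.0.16 and DESeq2 1.42.0 were run on recovered reads, 17594009 to 26103215 per library, as alternatives, beside other pseudocounts, filters and scalings, a replicate block, and each library left out. Fits were also run on simulated data that held no deviation shared by the 4 libraries that stand apart. No result here rests on those runs.

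The text names every member called in any contrast, the highest and the smallest-p member of each class, the 5 highest members, the 3 smallest p of 2 region contrasts and up to 2 contigs per pathway list; others were chosen after their values were seen. The labels do not say whether libraries of a group are separate collections, so p-values measure only the spread between these libraries. For the region contrasts they do not measure the spread between sites of a region. No library pair was alike within sampling noise.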

Additional observations from a re-analysis of the deposited data

Results flagged for a closer look

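Of 58 sets of 8 libraries checked for a library far from its nearest neighbour, 7 had one, and chance flags about 1 in 20 sets that are independent. These sets are not, since they share the same libraries, and G-protein coupled receptor 98 and the neural-cadherin-like contig were named for a small p of the regional difference. In heat, Slide Ranch heat 2 was the highest for the N-acetylserotonin O-methyltransferase-like contig (SR_contig_34067), with 3129.5 normalised reads, against 1605 in the next library. Pigeon Point heat 1 was the lowest for the muscarinic receptor (SR_contig_168934), with 0 normalised reads, against 8.07 in the next. La Jolla heat 1 was the lowest for 4 members: the 60 kDa neurofilament protein (SR_contig_114442), with 2.05 normalised reads and 7.35 in the next library; a metabotropic glutamate receptor 3 (SR_contig_3374), with 1329 and 2421; G-protein coupled receptor 98 (SR_contig_74669), with 18.5 and 56.0; and the neural-cadherin-like contig (SR_contig_7785), with 12.3 and 40.8. In control, Pigeon Point control 1 was the lowest for the GABA type B receptor subunit (SR_contig_43667), with 2.90 normalised reads and 16.5 in the next. All but the Slide Ranch library are among the 4 that stand apart.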

How the results depend on the processing

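Counts of called members are given in the order heat over all sites, northern heat, southern heat, controls by region, region, sites; with 16 libraries they were 6, 3, 3, 0, 5 and 5, and 0 for the regional difference in heat response, which was 0 in every fit run. DESeq2 gave 19, 8, 5, 4, 12 and 13, which is 10.7%, 4.49%, 2.81%, 2.25%, 6.74% and 7.3% of the members. Of all contigs it called 9.09%, 4.01%, 3.52%, 2.35%, 11.1% and 14.7%. Without the 4 libraries that stand apart they were 39, 20, 12, 4, 19 and 23, and with a term for those libraries 51, 25, 22, 5, 25 and 18, both chosen after the data were seen; with that term 24.4%, 10.2%, 8.92%, 5.43%, 22.4% and 17.6% of all contigs were called. Same-numbered libraries deviated together at La Jolla (correlation 0.644) and Pigeon Point (0.694), and hardly at Aliso Beach (0.103) or Slide Ranch (-0.059). The number 1 libraries of La Jolla and Pigeon Point are the 4 that stand apart. The main fit has no term for such a shared deviation, which it counts as spread between libraries. A replicate block gave 46, 18, 12, 0, 10 and 6, against 21.4%, 7.75%, 6.09%, 0.492%, 8.14% and 6.18% of all contigs. Of the members, the block called 25.8%, 10.1%, 6.74%, 0%, 5.62% and 3.37%. The term for the 4 libraries called 28.7%, 14%, 12.4%, 2.81%, 14% and 10.1% of them. Leaving out 1 library gave 5 to 16 for heat, 2 to 5 in the north, 2 to 10 in the south, 0 for controls, 1 to 13 for region and 2 to 8 for sites. The share of all contigs called was not taken for these fits, so their counts say nothing about the members against the whole table. The highest counts came without La Jolla heat 2 (16, 10 and 13; 8 for sites) or Pigeon Point heat 2 (5 in the north; 8 for sites), and the count of 1 for region came without Slide Ranch heat 2 or Aliso Beach heat 1; it was 2 without Slide Ranch control 2 or either Aliso Beach control, and 3 without Slide Ranch control 1. For sites the count was 2 without Slide Ranch control 2 or heat 1, Aliso Beach control 2 or heat 1, and 3 without Slide Ranch heat 2, Aliso Beach control 1 or heat 2, La Jolla control 1, or Pigeon Point control 1 or heat 1. The other pseudocounts, filters and scalings and edgeR kept each count within 1.5 times. At a mean of at least 50, the muscarinic receptor and the neurofilament protein were not tested. The neuroglian contig SR_contig_415_C3.1 changed sign without the 4 libraries (0.043), and over single libraries left out it ran from -0.252 to 0.036, and 4 other members with no call for heat also changed sign there: SR_contig_32781 from -0.195 to 0.125, SR_contig_6907 from -0.053 to 0.146, SR_contig_3312 from -0.09 to 0.167 and SR_contig_74669 from -0.129 to 0.259. The causes of these shifts were not tested.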
